A study of Homo sapiens with 5 samples.

Results

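Gene expression was compared between TF-1 cells expressing DbSCL, a form of the transcription factor SCL that cannot bind DNA, and TF-1 cells carrying the empty vector, both after 6 h in erythropoietin (Epo). TF-1 is an established human erythroleukaemia line that depends on GM-CSF and serves as a model of erythroid progenitors. The comparison used 2 of the 5 arrays of the series, 1 from each population, and covered every probe set with a single gene symbol. Of 22215 non-control probe sets, 19065 had a single symbol, and these stood for 11963 genes. The signal was above a floor (4.45 on the log2 scale, the 40th percentile of the non-control probe sets' values) on at least 1 of the 2 Epo arrays for 8359 genes, which are called the compared genes here. Where a gene had several probe sets, the one with the highest mean signal over the 5 arrays stood for it. All differences below are DbSCL minus vector on the log2 scale, so that a difference of 1 is 2-fold.

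Both populations carried a GFP-marked MSCV retroviral vector, which held either no further gene or DbSCL. Cells had been kept in fetal calf serum and human GM-CSF, spent a night without growth factor, and then received Epo at a dose the labels do not give. The 3 other arrays held vector cells after 6 h in GM-CSF at 5 ng/mL, vector cells after 6 h in SF (Steel factor, which activates the receptor c-Kit) at 20 ng/mL, and DbSCL cells after 6 h in the same dose of SF. No array held cells without cytokine, so the difference is one between populations in Epo and not a response to Epo. Whether GFP-positive cells were sorted, whether a population came from 1 clone, and how much DbSCL the cells made are not given in the sources used here. The stated purpose of the series' DbSCL arrays was to find genes regulated by SCL. Each group had 1 array, so there are no replicates, no difference was tested and no p-value is given. The arrays measure a culture as a whole, in which fewer cells of a kind and less RNA per cell cannot be told apart.

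SCL, the product of TAL1, is a basic helix-loop-helix factor of blood stem cells and of the erythroid and megakaryocytic lineages. It pairs with E proteins such as those encoded by TCF3, TCF12 and TCF4, and the pair recognises short E-box sequences in DNA. In erythroid cells SCL sits in a complex with LMO2, LDB1 and GATA1, which can be held at genes through GATA1 even without contact of SCL with DNA. A form of SCL that pairs with E proteins but does not bind DNA can therefore occupy partners without reaching E-boxes. ID proteins lack a DNA-binding region and hold E proteins in the same way. Epo acts through its receptor and the kinase JAK2, mainly on STAT5, and sustains survival and haemoglobin production of erythroid precursors.

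With DbSCL, 23 genes (0.275% of the compared genes) were lower by 2-fold or more and 8 genes (0.0957%) were higher by 2-fold or more. The genes with the lowest differences were CD36, a fatty acid and thrombospondin receptor also present on erythroid precursors, at -1.53, and ID2, an inhibitor of E proteins, at -1.49. They were followed by CSTB (-1.43), HEBP1 (-1.40), DUSP11 (-1.34), HMG20B (-1.33), PDSS1 (-1.30), HLA-DPA1 (-1.29), ARPC1A (-1.25), PTPRC (-1.22) and FUBP3 (-1.21). The 8 higher genes were GAR1 (1.55), SET (1.40), SRSF1 (1.20), TCF3 (1.12), TELO2 (1.09), DOHH (1.07), PLK2 (1.01) and SLC39A7 (1.01). At the smaller threshold of 1.5-fold, 232 genes (2.78%) were lower and 58 genes (0.694%) were higher. Quantile normalization of the 5 arrays gave 16 lower and 9 higher genes at 2-fold, and 140 lower and 82 higher at 1.5-fold. After subtraction of a loess curve of the difference on mean signal, 168 genes were lower and 80 higher at 1.5-fold.

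Most genes differed little. The median difference over the compared genes was 0, the 5th and 95th percentiles were -0.48 and 0.32, and 1010 genes had a difference of exactly 0. The deposited values were identical on both Epo arrays for 16.0% of the non-control probe sets. In the absence of replicates, the spread of a single difference was estimated from how far the SF and Epo differences of a gene lay apart, and it ran from 0.14 for the dimmest to 0.24 for the brightest of 10 bins of genes. This estimate holds any true dependence on the cytokine as well as measurement error. PCCB at -1.02 and SLC39A7 at 1.01 lay just inside the 2-fold limit. FAM98A at -0.999 and GPR161 at 0.99 lay just outside it.

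**Figure D1:**
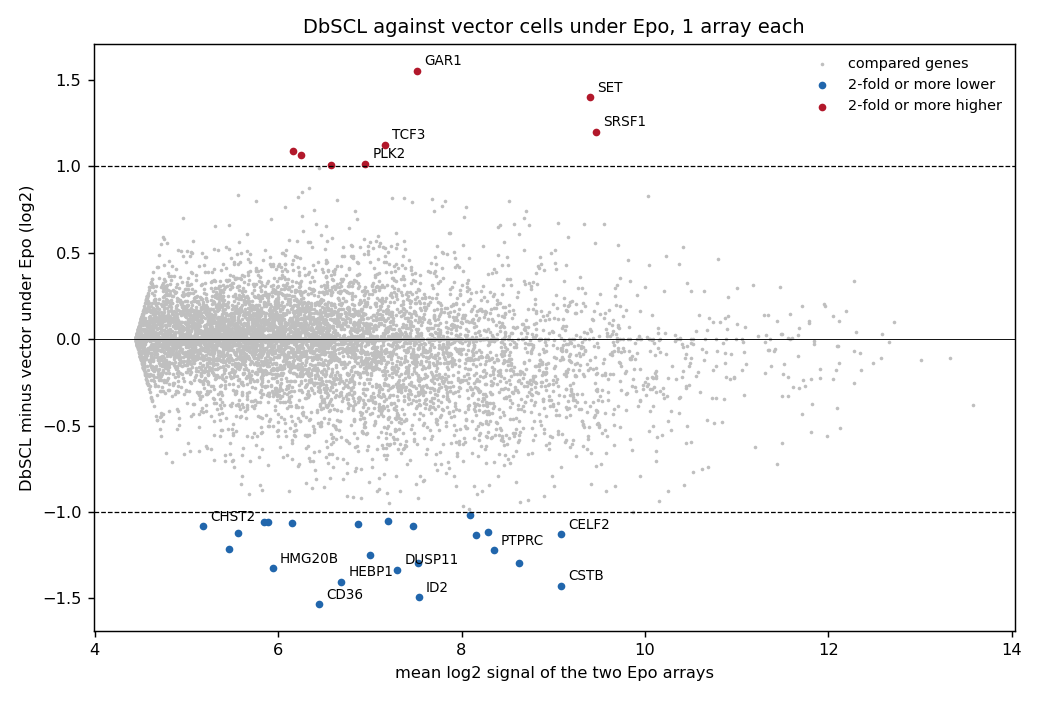
Difference between DbSCL and vector cells under Epo (y axis, log2) against the mean log2 signal of the same 2 arrays (x axis) for 8359 genes, 1 array per population. Blue points mark the 23 genes lower by 2-fold or more, red points the 8 genes higher by 2-fold or more, and dashed lines the 2-fold limits.

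The 5 arrays had close medians over non-control probe sets, from 4.89 to 4.98. Between the 2 Epo arrays, the spiked hybridization controls were higher by 0.19 with DbSCL, the 18S and 28S ribosomal RNA probe sets by 0.54 and 0.26, and the poly(A) controls lower at -0.04. The gap between 3′ and 5′ probe sets, a measure of RNA or label length, was larger with DbSCL by 0.27 for actin and by 0.39 for GAPDH. The median difference was 0 in the 7 dimmest of 10 bins of the compared genes and -0.03, -0.08 and -0.12 in the 3 brightest. The part of these array differences in the gene differences was not tested. Of 15 erythroid markers, 8 had a probe set with a single symbol and all 8 were above the floor, with a median difference of -0.08.

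SCL itself and its partners showed small differences under Epo, apart from TCF3. TAL1 measured 7.57 with GM-CSF, 8.31 with SF and 8.59 with Epo in vector cells, and 8.29 with SF and 8.31 with Epo in DbSCL cells. Its difference under Epo was -0.29 by this probe set and 0.19 by a second one, so its direction depended on the probe set. By the second one DbSCL cells under Epo had the highest value of the 5 arrays, 7.75, beside 7.49 to 7.56 on the vector arrays. These probe sets need not lie within the DbSCL construct, so they do not check the labels. Of the 12 compared genes of the SCL and E protein list, 5 were below 0 and 7 above 0, with a median of 0.02. The bridging factors LMO2 and LDB1 differed by -0.37 and 0.11, the corepressor CBFA2T3 by -0.39, and the SCL relative LYL1 by 0.03. Among the E proteins, TCF12 differed by 0.19 and TCF4 by 0.00. Under SF the list median was -0.07. There CBFA2T3 differed by -0.62 and TCF4 by -0.70, with -0.31 to -0.07 for the other TCF4 probe sets.

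TCF3, which encodes the E proteins E12 and E47, had widely different signals among the vector arrays as well. Its brightest probe set measured 10.00 with GM-CSF, 7.74 with SF and 6.60 with Epo in vector cells, and 9.62 with SF and 7.73 with Epo in DbSCL cells. DbSCL cells under Epo thus stood within the range of vector cells for this probe set. The difference was 1.12 under Epo and 1.88 under SF. The 10 other probe sets of TCF3 differed only by -0.01 to 0.68 under Epo and by -0.12 to 0.75 under SF. KIT, the receptor of SF, differed by -0.40 and EPOR, the receptor of Epo, by -0.12.

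The gene for the E protein inhibitor ID2 was lower in DbSCL cells under both cytokines. Its signal was 7.20 with GM-CSF, 8.11 with SF and 8.28 with Epo in vector cells, and 6.56 with SF and 6.79 with Epo in DbSCL cells. Both DbSCL values lay below all 3 vector values. The difference was -1.49 under Epo and -1.56 under SF, and a second probe set gave -0.75 under Epo and -0.67 under SF. BHLHE40, a helix-loop-helix repressor, was lower by less than 2-fold in both, at -0.81 and -0.99, but its dimmer probe set was at -0.05 and 0.07. Of the 10 compared ID and related helix-loop-helix genes, 2 were lower by 1.5-fold and 0 higher, beside 2.78% lower and 0.694% higher over all compared genes. The list median was -0.21. ID1 differed by -0.54, short of 1.5-fold.

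Because SCL and E proteins recognise E-boxes, and GATA1 recognises GATA sites, the 250 bases before the listed start of each gene were searched for CANNTG (the E-box letters) and GATAA on both strands. The windows shown are those of genes that were 2-fold lower under Epo, 1.5-fold lower under SF and had a single listed start. They come from RefSeq on GRCh38.p14, read on the gene's strand, with matches to either motif in capitals. ID2 has its window at chr2:8681806-8682055 on the plus strand, LXN at chr3:158672649-158672898 on the minus strand and PTPRC at chr1:198638790-198639039 on the plus strand.
ID2: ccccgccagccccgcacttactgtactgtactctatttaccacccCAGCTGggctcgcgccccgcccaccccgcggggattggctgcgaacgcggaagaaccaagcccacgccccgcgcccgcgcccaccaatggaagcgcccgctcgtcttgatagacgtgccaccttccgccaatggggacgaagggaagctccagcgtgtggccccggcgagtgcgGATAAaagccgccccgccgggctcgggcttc
LXN: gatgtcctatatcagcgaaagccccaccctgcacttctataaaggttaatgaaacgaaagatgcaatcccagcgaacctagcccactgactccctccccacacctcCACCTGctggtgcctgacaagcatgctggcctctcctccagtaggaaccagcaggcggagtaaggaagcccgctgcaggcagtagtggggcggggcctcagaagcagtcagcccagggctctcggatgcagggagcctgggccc
PTPRC: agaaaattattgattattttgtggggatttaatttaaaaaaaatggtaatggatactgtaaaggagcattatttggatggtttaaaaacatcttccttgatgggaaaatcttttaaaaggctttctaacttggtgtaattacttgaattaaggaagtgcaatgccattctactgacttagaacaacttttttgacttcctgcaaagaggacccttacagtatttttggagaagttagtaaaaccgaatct
The ID2 window holds CAGCTG at position -205 and GATAA at position -31 relative to the start. The LXN window holds CACCTG at position -144 and no GATAA. In the PTPRC window neither motif was found, and this says only that these letters are not in this window.

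E-box letters were common in such windows. CANNTG was in 61.8% of all 35116 windows and in 55.0% of the 10179 windows of compared genes. Among the genes lower by 2-fold, 19 of 23 had a listed window, and 57.1% of their 35 windows held CANNTG, while 38.5% of the 13 windows of the 8 higher genes did. CAGCTG or CAGATG, which are forms of CANNTG, were in 20.5% of the windows of compared genes, in 10 of 35 windows of lower genes and in 0 of 13 windows of higher genes. GATAA was in 13.8% of the windows of compared genes, 20.0% of those of lower genes and 15.4% of those of higher genes. Windows of a gene with several starts can overlap, and these shares describe sequence and not binding.

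Several of the lower genes encode surface proteins. CD36 measured 6.01 with GM-CSF, 6.53 with SF and 7.22 with Epo in vector cells, and 5.84 with SF and 5.68 with Epo in DbSCL cells. By this probe set DbSCL cells lay below all vector arrays, with a difference of -1.53 under Epo and -0.69 under SF. A dimmer second probe set gave -0.36 and -0.77, and there DbSCL cells under Epo (4.69) were above vector cells under GM-CSF (4.63). With the signal averaged over all CD36 probe sets, also any under the floor, the difference was -0.61 under Epo, short of 2-fold. PTPRC, which encodes the leukocyte phosphatase CD45, measured 7.35 with GM-CSF, 8.48 with SF and 8.96 with Epo in vector cells, and 7.31 with SF and 7.74 with Epo in DbSCL cells. The difference was similar in size under Epo (-1.22) and SF (-1.17), but DbSCL cells under Epo stayed above vector cells under GM-CSF, and other probe sets gave -0.45 and -0.20 under Epo. Of 18 compared leukocyte and progenitor surface genes, PTPRC was the one past 1.5-fold, and the list median was 0.04. By 1.5-fold, 2.78% of all compared genes were lower and 0.694% higher.

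HLA-DPA1, the alpha chain of an MHC class II molecule, measured 8.20 with GM-CSF, 8.66 with SF and 9.28 with Epo in vector cells, and 7.76 with SF and 7.98 with Epo in DbSCL cells. All vector values exceeded both DbSCL values. The difference was -1.29 under Epo and -0.90 under SF, and 2 other probe sets gave -1.58 and -0.14 under Epo. The first of these gave -0.31 under SF. The second was at the floor on every array except that of vector cells under Epo (4.59), so it says little. HLA-DMA, which helps load peptides onto class II molecules, was at -0.78. Of 11 compared class II genes these 2 were lower by 1.5-fold and 0 were higher, beside 2.78% lower and 0.694% higher over all compared genes. The list median was -0.18.

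ANGPT2, a ligand of the receptor TIE2, measured 5.14 with GM-CSF, 6.07 with SF and 6.12 with Epo in vector cells, and 5.09 with SF and 5.00 with Epo in DbSCL cells. Its differences were -1.12 under Epo and -0.97 under SF, and vector cells under GM-CSF were only slightly above DbSCL cells. With the signal averaged over all ANGPT2 probe sets, the Epo difference was -0.61, short of 2-fold. TIE1, a related receptor, was at -0.72, and the 9 compared endothelial markers had a median of -0.08. TYROBP, which encodes the signalling adaptor DAP12, differed by -1.08 under Epo and by -0.09 under SF. The 8 of 19 monocyte and neutrophil markers that were compared, of which TYROBP is one, had a median of 0.11.

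Genes of haem metabolism were among those 2-fold lower. HEBP1, which encodes a haem-binding protein, measured 6.33 with GM-CSF, 6.89 with SF and 7.39 with Epo in vector cells, and 6.00 with SF and 5.99 with Epo in DbSCL cells. Both DbSCL values were below every vector value, with differences of -1.40 under Epo and -0.89 under SF. ALAS1, the housekeeping form of the first enzyme of haem synthesis, measured 6.69 in vector and 5.62 in DbSCL cells under Epo, a difference of -1.07, and differed by -0.53 under SF. Of the 13 compared haem genes, 9 were below 0 and the median was -0.15. For iron handling, 9 of 10 compared genes were below 0, with a median of -0.15, and PCBP1, an iron chaperone and RNA-binding protein, was at -0.94. Over all compared genes, 46.4% were below 0 and the median was 0.

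HBD, which encodes delta globin, was at -0.72 under Epo and -1.04 under SF, and the 6 compared globin and globin chaperone genes had a median of -0.06. GATA1 and KLF1, erythroid transcription factors, differed by -0.07 and 0.00. Within the list of erythroid membrane and blood group genes, CD36 was the one of 16 past 1.5-fold, XK differed by 0.56 and RHAG by -0.52, and the median was -0.09. By 1.5-fold, 2.78% of all compared genes were lower and 0.694% higher.

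In the list of GATA and erythroid transcription factors with their cofactors, the members past 1.5-fold belong to the histone demethylase complex that holds LSD1 and CoREST. HMG20B, an HMG box subunit, measured 5.37 with GM-CSF, 5.78 with SF and 6.60 with Epo in vector cells, and 5.86 with SF and 5.28 with Epo in DbSCL cells. The difference was -1.33 under Epo and 0.08 under SF. Under 7 alternative ways of processing, the Epo difference of HMG20B ran from -1.34 to -0.19 and passed 2-fold in 6. RCOR1, which encodes CoREST, was at -0.68 under Epo and -0.52 under SF. KDM1A, which encodes LSD1, was at -0.58, just short of 1.5-fold, and at 0.16 under SF. The list of 16 compared genes had a median of -0.04, with 8 members below 0.

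Of the Epo receptor and JAK-STAT genes, 2 of 16 were lower by 1.5-fold and 0 higher, beside 2.78% lower and 0.694% higher over all compared genes. LYN, a Src family kinase that takes part in Epo receptor signalling, was at -0.84, with -0.52 and -1.06 for other probe sets, and PTPN6, the phosphatase SHP-1 that restrains the receptor, was at -0.86. The median of the list was -0.10. In the list of 16 compared ERK pathway genes, which holds immediate early and feedback genes, PLK2 (1.01) and the AP-1 factor JUND (0.66) were higher by 1.5-fold and the phosphatase gene DUSP5 (-0.68) was lower. The KIT signalling list held 0 of 15 genes past 1.5-fold under Epo, a number too small to read beside the shares over all compared genes.

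The remaining lower genes have varied roles. In the lysosome list, CSTB, an inhibitor of cysteine cathepsins, went from 9.80 in vector to 8.37 in DbSCL cells under Epo, whereas its relative CSTA was at 0.61. LAMP2, a lysosomal membrane protein, was at -1.13 under Epo and -0.08 under SF, but its other probe set was at -0.17 and -1.10. Of the actin nucleating Arp2/3 complex, ARPC1A differed by -1.25 and ACTR3 by -0.60, whereas the alternative subunit ARPC1B was at 0.66. PDSS1, which makes the side chain of coenzyme Q, was at -1.30, and PMVK, an enzyme of the upstream mevalonate pathway, at 0.81. PCCB, a subunit of propionyl-CoA carboxylase, and DERA, an aldolase of deoxyribose phosphate, were at -1.02 and -1.06. DUSP11, an RNA phosphatase, CELF2 and FUBP3, RNA- and DNA-binding proteins, and WDR77, a partner of the arginine methyltransferase PRMT5, were at -1.34, -1.13, -1.21 and -1.12. Other probe sets of CELF2 gave -0.24 and -0.41, and the other one of WDR77 gave -0.09. LXN, an inhibitor of carboxypeptidases, was at -1.07. KLHDC2, a substrate receptor of a ubiquitin ligase, CHST2, a sulfotransferase, and TMEM14A were at -1.06, -1.08 and -1.05. CHST2 was near the floor in DbSCL cells under Epo (4.64). Among alternative ways of processing, its difference was as small as -0.29 and that of FUBP3 as small as -0.65.

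The higher genes included factors of RNA and protein synthesis. GAR1, a core protein of the small nucleolar particles that guide pseudouridylation, measured 7.81 with GM-CSF, 7.29 with SF and 6.74 with Epo in vector cells, and 7.61 with SF and 8.29 with Epo in DbSCL cells. DbSCL cells under Epo were above all other arrays, with a difference of 1.55, against 0.32 under SF. SET, a histone chaperone and inhibitor of PP2A, measured 9.65, 9.60 and 8.70 in vector cells in the same order and 9.60 and 10.10 in DbSCL cells under SF and Epo. Its difference was 1.40 under Epo and 0.00 under SF, and a second probe set gave 0.68 under Epo and -0.32 under SF.

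SRSF1, a splicing factor, had a difference of 1.20 under Epo and 0.00 under SF. Its other probe sets gave -0.33 and 0.93 under Epo, so its direction depended on the probe set. In the same order they gave -1.21 and -0.19 under SF. DOHH, which completes the hypusine residue of EIF5A, was at 1.07 and TELO2, which stabilises kinases of the mTOR family, at 1.09, with 0.16 for the other TELO2 probe set. Among alternative ways of processing, the difference of DOHH was as small as 0.42. SLC39A7, a zinc transporter of the endoplasmic reticulum, was at 1.01 under Epo and 0.78 under SF, whereas the transporter SLC39A8 was at -0.69 and -0.71, with -0.37 and 0.10 under Epo for its dimmer probe sets. PLK2, a polo-like kinase, measured 5.53 with GM-CSF, 6.52 with SF and 6.44 with Epo in vector cells, and 6.74 with SF and 7.46 with Epo in DbSCL cells. DbSCL cells were above all vector cells for this gene, with differences of 1.01 under Epo and 0.23 under SF.

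In the lists these genes belong to, members past 1.5-fold lay on both sides of 0 for most. The shares over all compared genes, beside which these counts stand, were 2.78% lower and 0.694% higher by 1.5-fold. Of 24 compared ribosome biogenesis genes, GAR1 and NCL (0.83) were higher and MDN1 (-0.89) and WDR12 (-0.59) lower by 1.5-fold, with a median of -0.01. Of 28 splicing factors, SRSF1 and SF3A2 (0.64) were higher and SRSF7 (-0.66) and SF3B1 (-0.60) lower, with a median of 0.04. Other probe sets gave -0.05 for SF3A2 and from -0.37 to 0.03 for SF3B1. Without shared probe sets, those with the suffix _s_at or _x_at, the brightest one left put SRSF7 at 0.078. The other unshared ones of SRSF7 gave -0.66 and 0.21, so its direction depended on the probe set. In the SET and histone chaperone list, SET was higher while ASF1A (-0.80), HAT1 (-0.78) and PPP2CB (-0.69) were lower. Among 23 ribosomal protein genes, RPLP2 (0.85, with 0.00 for another probe set) and RPL27A (0.77) were higher, and the median was -0.08.

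The position of both Epo arrays among the 5 is given next as a description. Vector cells under Epo had the highest signal of the 5 arrays for 23 of 23 lower genes, compared with 29.1% of all compared genes. They had the lowest signal for 7 of 8 higher genes, compared with 25.1% of all; PLK2, lowest in vector cells under GM-CSF, was the exception. At 1.5-fold the counts were 229 of 232 and 48 of 58. The choice of a gene by its difference favours such an extreme position, so nothing is read from these shares. DbSCL cells under Epo lay below all 3 vector arrays for 8 of the 23 lower genes (14.9% of all compared genes) and above all 3 for 6 of the 8 higher genes (16.9% of all). Both DbSCL arrays lay below all 3 vector arrays for 5 of the 23 (3.61% of all), which were CD36, ID2, HEBP1, HLA-DPA1 and ANGPT2. The value of DbSCL cells under Epo also entered the choice of these genes, which favours such positions. Nothing is read from these shares either.

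**Figure D2:**
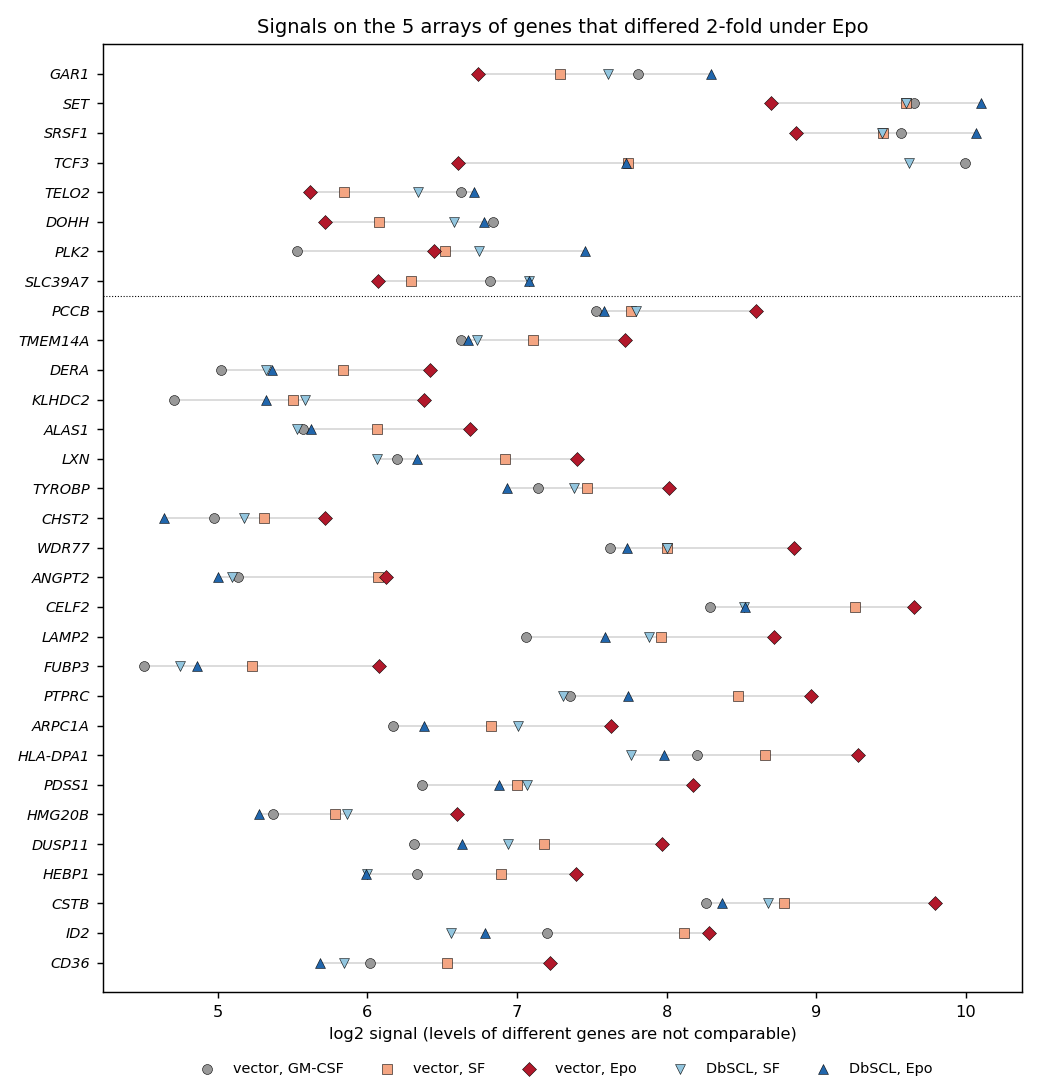
Log2 signal (x axis) on each of the 5 arrays, 1 symbol per array, for the 8 genes higher (above the dotted line) and the 23 genes lower (below it) by 2-fold with DbSCL under Epo. The red diamond of vector cells under Epo lies at the high end for 23 of 23 lower genes and at the low end for 7 of 8 higher genes.

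The counts depended on which vector array DbSCL cells under Epo were set against, although the other vector arrays also differ in cytokine. Against vector cells under SF, 4 genes were lower and 1 higher by 2-fold, and 2 of the 23 lower genes and 1 of the 8 higher genes were among them. Against vector cells under GM-CSF, 3 genes were lower and 52 higher, with 0 of the 23 and 1 of the 8 among them. At 1.5-fold, 9 of the 23 lower genes were also below vector cells under SF, and 0 were below vector cells under GM-CSF. These comparisons share the DbSCL Epo array, and no vector array without cytokine was analysed here.

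The SF pair of arrays gives a separate comparison of the same populations in another cytokine, with no array in common. Of the 23 genes 2-fold lower under Epo, 8 were also lower by 1.5-fold under SF, where 3.72% of the compared genes were. These were CD36, ID2, HEBP1, HLA-DPA1, PTPRC, CELF2, ANGPT2 and LXN, and ID2 and PTPRC were lower by 2-fold in both. For 11 of the 23 the SF difference was within 0.25 of 0, among them CSTB (-0.11), DUSP11 (-0.24), HMG20B (0.08), PDSS1 (0.07), ARPC1A (0.18) and WDR77 (0.00). LAMP2 (-0.08) was also among the 11, but its other probe set was at -1.10 under SF. Of the 8 higher genes, TCF3 and SLC39A7 were also higher by 1.5-fold under SF, where 1.42% of the compared genes were. For TCF3 this is the brightest probe set, and the others ran from -0.12 to 0.75 under SF. The median SF difference was -0.37 for the 23 lower genes and 0.41 for the 8 higher genes, against 0 for all. At 1.5-fold, 46 of 232 lower genes (19.8%) and 5 of 58 higher genes (8.62%) passed the same limit in the same direction under SF. With 1 array per group, the dependence of any gene's difference on the cytokine was not tested.

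**Figure D3:**
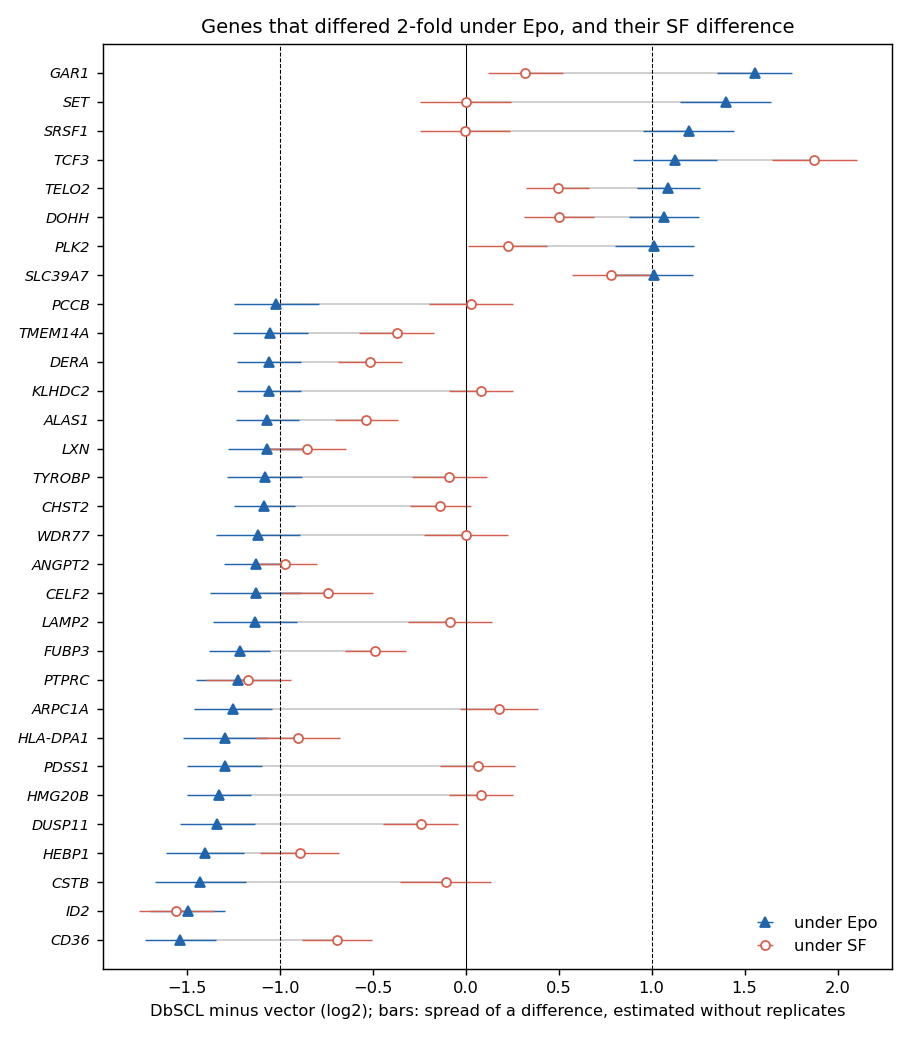
Difference between DbSCL and vector cells (x axis, log2) under Epo (blue triangles) and under SF (open circles) for the 31 genes past 2-fold under Epo, with bars for the spread of a single difference as estimated without replicates. ID2 and PTPRC lie at -1 or below in both, whereas HMG20B, PDSS1 and WDR77 lie near 0 under SF.

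Several probe sets of a gene read the same RNA on the same arrays, so they check the measurement of a gene but are no replicates. For 2421 genes with at least 2 probe sets above the floor, the differences of a pair of probe sets lay apart by 0.16 in the median and by 0.50 at the 90th percentile. Of the 31 genes past 2-fold, 20 had a single probe set above the floor and 11 had more. In 9 of these 11, all probe sets had the same sign, and in ID2 and SET they all passed 1.5-fold. The brightest probe set of each was chosen for its 2-fold difference. No share of same-sign genes among the 2421 is given, so nothing is read from the 9. Taking every gene, all probe sets passed 1.5-fold lower for 8 genes and higher for 3.

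Besides ID2, the genes lower by all their probe sets were SNX4, a sorting nexin, at -0.87 and -0.89, PSMA1, KPNA3, ASF1A, PGK1, LPIN1 and ACTR3. For PSMA1, a subunit of the proteasome core, 3 probe sets ran from -0.67 to -1.02, and for PGK1, a glycolytic enzyme, 3 ran from -0.62 to -0.78. SNX4 was also lower under SF, at -0.62. The genes higher by all their probe sets were SET, HNRNPH1, a splicing regulator, at 0.67 and 0.74, and ACACB. For ACACB, the acetyl-CoA carboxylase of the mitochondrial surface, the brightest probe set was at 0.76 and 2 others at 1.42 and 1.55, so the probe set that stood for it gave its smallest difference.

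**Figure D4:**
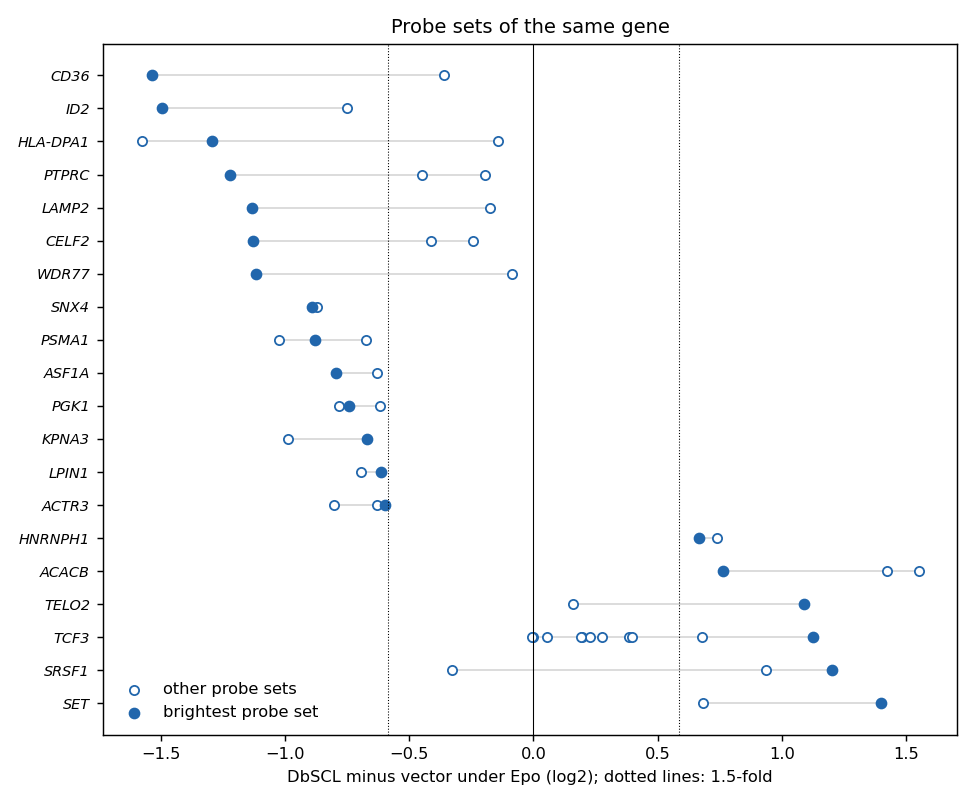
Differences under Epo (x axis, log2) of all probe sets above the floor for genes past 2-fold that have more than 1 and for genes whose probe sets all pass 1.5-fold (dotted lines). Filled points are the brightest probe set and open points the others; those of ID2 and SET stay on 1 side, whereas those of SRSF1 fall on both sides of 0.

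Across the gene lists, small shifts shared by many members were measured for a few. Of 40 lists, 31 had a median below 0 and 7 above 0, and 3 had a median of -0.2 or below. For all compared genes the median was 0 and 46.4% were below 0. For equally bright genes the median ranged from -0.12 to 0, depending on the list. In the proteasome list, 23 of 25 compared genes were below 0, with a median of -0.32. PSMA1 (-0.88), PSMD8 (-0.77) and PSMD1 (-0.65, with 0.00 for another probe set) were lower by 1.5-fold, as were 2.78% of all compared genes. PSMD8 measured 9.70 with GM-CSF, 10.21 with SF and 10.91 with Epo in vector cells, and 10.22 with SF and 10.15 with Epo in DbSCL cells. The signal of vector cells under Epo was the highest of the 5 arrays for 19 of the 25 genes, compared with 29.1% of all compared genes. That signal enters the difference for which the list is described, so nothing is read from this share. The median of the list under SF was 0.00, and the median difference of equally bright genes under Epo was -0.12. Quantile normalization and loess gave the list medians of -0.16 and -0.20.

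In the glycolysis and hypoxia list, 20 of 25 compared genes were below 0, beside 46.4% of all, with a median of -0.27. PGK1, at -0.74, was the one past 1.5-fold, a limit by which 2.78% of all compared genes were lower. The list median was 0.00 under SF, and -0.16 after either quantile normalization or loess. The third list was that of ID and related factors, led by ID2 and BHLHE40. Lists of cell cycle, death and adhesion genes lay closer to 0. DNA replication genes had a median of -0.03 over 29 genes, with MCM10 at -0.79, mitotic genes -0.03 over 25, with TPX2 at -0.62, integrins -0.05 over 13, and BCL2 family and death genes 0.07 over 17. The lists were chosen with results of these data known, and nothing is taken as particular to them.

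**Figure D5:**
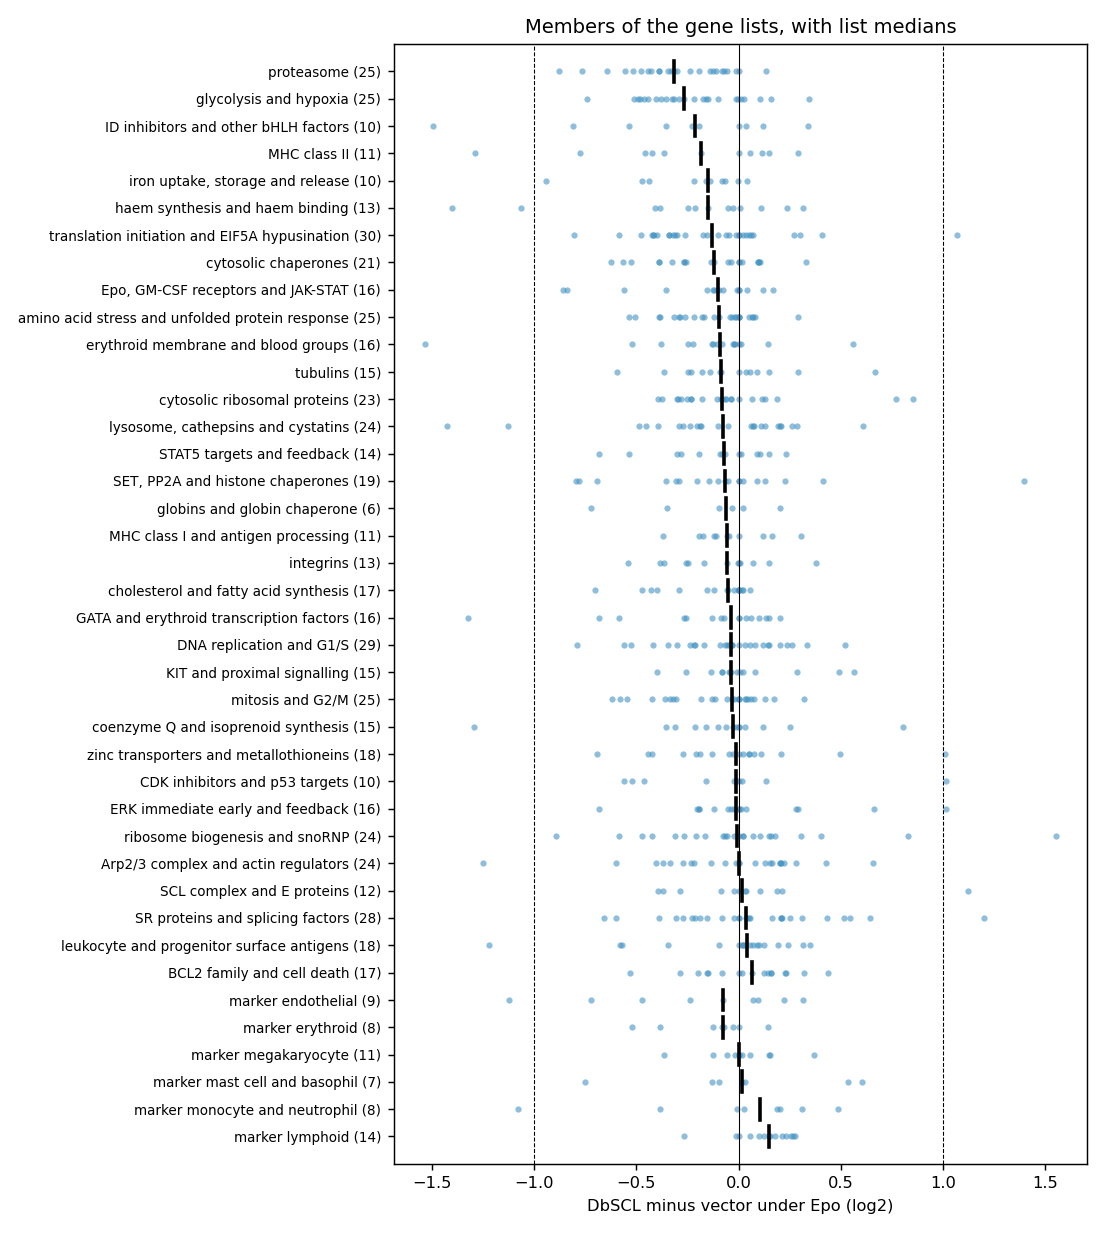
Difference under Epo (x axis, log2) of each compared member (points) of 40 gene lists, with the list median as a black bar and the number of compared members in brackets. Medians run from -0.32 for the proteasome to 0.15 for lymphoid markers, and dashed lines mark 2-fold.

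The counts also depended on how a gene was read from its probe sets. The mean of all probe sets of a gene gave 16 lower and 4 higher genes at 2-fold, and leaving out shared probe sets gave 15 and 5. Of the 31 genes, 12 passed 2-fold under every one of the 8 alternatives that gave a value for them. These were ARPC1A, CSTB, DUSP11, HEBP1, HLA-DPA1, ALAS1, ID2, PDSS1, GAR1, PLK2, SET and SLC39A7. Among them, only HLA-DPA1, ID2 and SET had a further probe set above the floor. For the others the choice of probe set could change little. Centring the arrays left every count as it was, and changes of the floor hardly reach genes well above it. Nothing is therefore read from the 12.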

How the data were processed

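Per the labels' protocols, RNA of TF-1 cells was biotin-labelled by an Affymetrix small sample method, with 1 array for each of the 5 groups. The authors deposited 1 log2 signal per probe set and array, from 2.08 to 13.77. The log2 unit was inferred from this range. The summarisation, its software and any normalization between arrays are not given in the sources used here, and such steps can mask a shift shared by most genes and compress differences of dim probe sets.

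Values were used as deposited. Symbols came from the platform annotation, which gave several symbols to 1043 non-control probe sets and none to 2107. Of the 19065 with a single symbol, 19053 were found in the RefSeq gene table (GRCh38.p14), and these were the basis for names. Values under the floor were set to it. The spread of a difference is the scaled median absolute deviation of the SF minus the Epo difference, divided by the square root of 2, in 10 bins of mean signal. With 1 array per group there is no test, and the precision is limited by the number of arrays. The counting was tested on simulated data. Python 3.11.15, numpy 2.4.6, pandas 2.3.3, scipy 1.17.1 and statsmodels 0.14.6 (loess span 0.3) were used.

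Genes were named if they were SCL partners, KIT or EPOR, passed 2-fold, were list members past 1.5-fold (at most 4 a list), or had all of at least 2 probe sets past 1.5-fold. FAM98A and GPR161, list members short of 1.5-fold and the subset picked by their SF difference were named after their values were seen. The members and the 40 lists (802 genes, 642 compared) were chosen with earlier results of these data known. Promoter windows came from RefSeq, and sequences are shown for lower genes with 1 listed start. Alternatives covered normalization, the probe set of a gene and the floor.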

Additional observations from a re-analysis of the deposited data

Results flagged for a closer look

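For 2 named genes past 1.5-fold under Epo, the SF difference had the opposite sign and exceeded the spread of a single difference. Further named genes had an opposite sign within that spread, among them ARPC1A (-1.25 under Epo, 0.18 under SF) and HMG20B (-1.33 and 0.08). JUND, an AP-1 factor, was at 0.66 under Epo and -0.39 under SF, and SF3A2, a splicing factor, at 0.64 and -0.30. The other probe set of SF3A2 was at -0.05 under Epo and 0.04 under SF, so the pattern was not seen there. The difference between cytokines was not tested, since each group had 1 array. Among probe sets without a single gene symbol, which no comparison used, 7 of 1627 above the floor differed by 2-fold under Epo, 2 lower and 5 higher.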

How the results depend on the processing

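No paired analysis was possible because each group had 1 array. Of 8 alternatives, centring the arrays, no floor and requiring both arrays above the floor gave 23 lower and 8 higher genes at 2-fold, as reported, and a floor at the 60th percentile gave 18 and 8. Quantile normalization moved the lower genes at 1.5-fold from 232 to 140. The mean of all probe sets moved the higher genes to 4 at 2-fold and 37 at 1.5-fold. Leaving out probe sets of the suffixes _s_at and _x_at left fewer genes. The counts were then 15 lower and 5 higher at 2-fold, and 132 and 25 at 1.5-fold. The difference of SRSF7 turned from -0.66 to 0.078, although a dimmer unshared probe set was at -0.66. In alternatives chosen after seeing the data, the vector SF array in place of vector Epo gave 4 lower and 1 higher at 2-fold, and 39 and 23 at 1.5-fold, and the vector GM-CSF array gave 3 and 52, and 85 and 542. Apart from the fewer genes compared and the change of array, the cause was not tested. Signals near the floor limit what a difference can show, and 8115 of 8359 genes were above it on both arrays.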

Other observations

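Markers of other blood lineages lay close to 0 as lists. Of 12 mast cell and basophil markers, 7 were compared, with a median difference of 0.02. FCER1A, the alpha chain of the high-affinity IgE receptor, was at -0.75 under Epo, and HDC, the enzyme that makes histamine, at 0.60. FCER1A measured 6.59 with GM-CSF, 7.18 with SF and 7.28 with Epo in vector cells, and 6.37 with SF and 6.53 with Epo in DbSCL cells. HDC measured 6.04, 6.36 and 6.17 in vector cells in the same order, and 6.82 and 6.77 in DbSCL cells, so that both DbSCL values were above all 3 vector values. Of 11 compared megakaryocyte markers, 0 passed 1.5-fold and the median was 0.00. Over all compared genes, 2.78% were lower and 0.694% higher by 1.5-fold, so the 0 is too small a number to read. Among 14 compared lymphoid markers, 11 were above 0, with a median of 0.15, beside 3470 of all 8359 compared genes above 0.

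In lipid synthesis, SQLE, an enzyme of cholesterol synthesis, was at -0.70 under Epo and -0.49 under SF by its brightest probe set, and at 0.13 and -0.02 under Epo by the others. The 17 compared cholesterol and fatty acid genes had a median of -0.05. Among tubulins, TUBB was at -0.60 and TUBA4A at 0.67. EIF2AK2, the kinase PKR that responds to double-stranded RNA, was at -0.81 by its brightest probe set and at 0.25 by another.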
